A study of Mus musculus with 3 samples.

Results

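A set of 240 substitutions in 3 haploid mouse embryonic stem cell (ESC) lines was examined, those listed as gaining a stop codon, losing a stop codon, or changing the acceptor or donor dinucleotide of an intron. They were taken from a table of exonic single-nucleotide variants with 11544 single-base positions, 1 entry per position, leaving out genes named as olfactory (Olfr) or vomeronasal (Vmn) receptors. The lines were the parental O48 line, labelled WT (passage 40), ΔDSM-O48-1 cells, knocked out for *Dmpk*, *Six5* and *Mbnl1* (passage 60), and ΔDSMD-O48-2 cells, knocked out for *Dmwd* as well (passage 70). All were labelled C57BL/6, were grown in 2i/Lif medium and are androgenetic, so that they hold a paternal genome, and all descend from O48, which lacks the *H19* and *IG* differentially methylated regions. Each knockout line is a clone, ΔDSMD-O48-2 was made from ΔDSM-O48-1, and each line was sequenced as 1 library. Every comparison between lines is therefore a comparison of libraries. A line carried a substitution when its genotype held the alternate base and at least 10 reads covered the position. The substitution was fixed there if at least 80% of reads had the alternate base, and mixed below that share.

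Of the 240 substitutions, 137 were carried by all 3 lines. These comprised 71 stop-gains, 49 stop-losses, 9 acceptor and 8 donor substitutions. A further 38 were carried by 2 lines, 59 by 1 line, and 6 reached no call at this depth. Not carried does not mean absent. The *Vezf1* donor had the alternate base in all of 11 (O48), 14 (ΔDSM-O48-1) and 6 reads (ΔDSMD-O48-2), the last under 10. *Sp140* R54*, also not carried by all 3, had it in 10 of 57, 7 of 60 and 5 of 58 reads of these lines. In all 3 lines, 63 were fixed, 69 were mixed, and 5 lay on both sides of 80% in different lines. At the 137 positions, reference and alternate reads came to 19491 for O48, to 20566 for ΔDSM-O48-1 and to 19978 for ΔDSMD-O48-2, with medians of 45, 43 and 43 reads per position.

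A stop-gain turns an amino acid codon into TAA, TAG or TGA and ends translation there. An mRNA whose stop lies well before its last exon junction is a substrate of nonsense-mediated decay, which degrades it, while a stop in the last exon mostly shortens the protein. A stop-loss lets translation run on to the next stop in frame. Nearly all mammalian introns start with GT, the donor, and end with AG, the acceptor, and the spliceosome reads both. A haploid cell holds a single allele of each locus, so a site that exists once in the genome is read with 1 base.

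Few of the listed effects were found in protein-coding transcripts. When each substitution was placed in the RefSeq transcripts of GRCm38.p6, the build that carries the listed reference base at 240 of 240 positions, 33 of the 137 (24.1%) had the listed effect in a coding transcript. The same step found the listed effect for 1298 of 2391 nonsynonymous (54.3%) and 1218 of 1671 synonymous substitutions (72.9%) carried by all 3 lines. The share was 64.7% for splice sites (11 of 17), 28.2% for stop-gains (20 of 71) and 4.08% for stop-losses (2 of 49). In this step only the kind of effect had to match, not the codon. Kinds of effect differ in how readily any change in a coding exon meets them, so these shares are not on an equal footing. In GENCODE, 32 of the 33 had the effect as well. The 33 are described first.

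**Figure D1:**
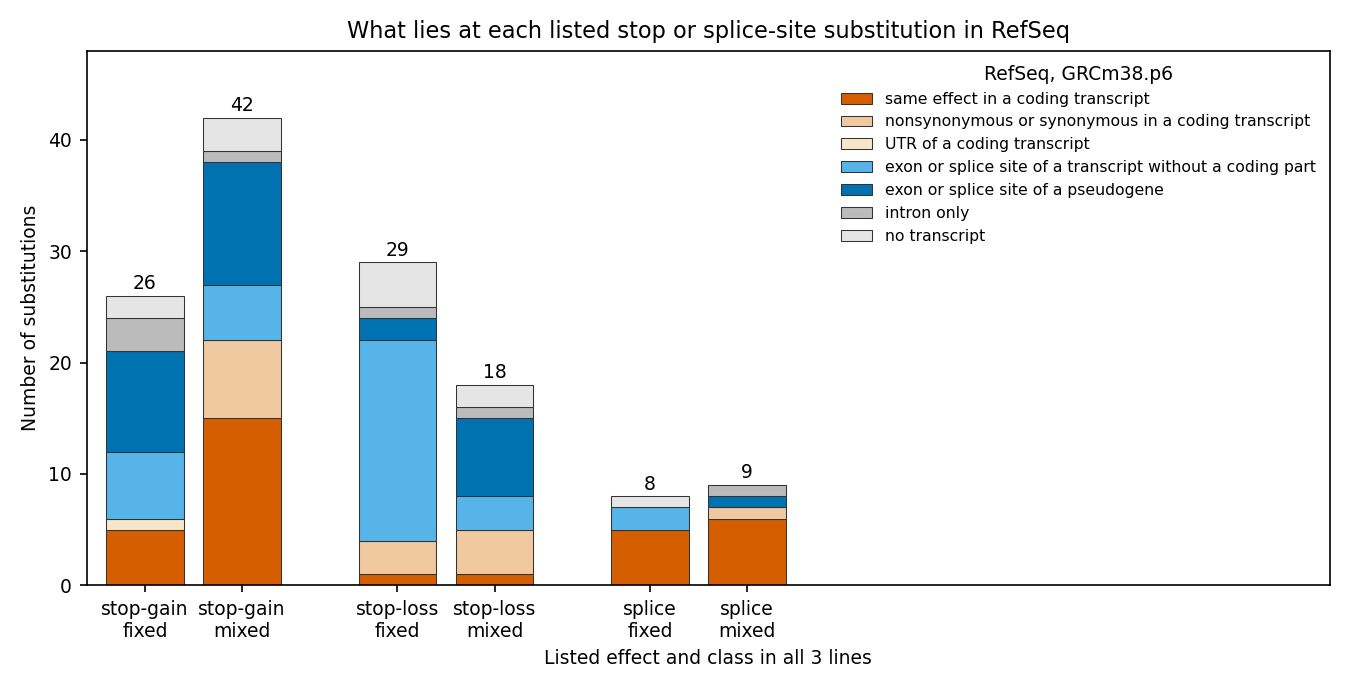
Number of stop-gain, stop-loss and splice-site substitutions fixed or mixed in all 3 lines, with the total above each bar, coloured by what RefSeq has at the position. The listed effect fell in a coding transcript for 5 of 26 fixed and 15 of 42 mixed stop-gains, 1 of 29 fixed and 1 of 18 mixed stop-losses, and 5 of 8 fixed and 6 of 9 mixed splice-site substitutions.

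Of the 11 fixed substitutions with a coding effect, 1 removed a stop codon, 5 made one and 5 were at splice sites. The sequences below give, for the stop-loss and 4 of the stop-gains, the reference (ref) and alternate (alt) transcript sequence, 5′ to 3′, with the affected codon in capitals. They are from the genome of GRCm38.p6 and show that each change is of 1 base.
Scnm1 *187R, chr3:95130181-95130207, minus strand, ref: cccaccaaacgaTGAgtcctgaaccat
Scnm1 *187R, alt: cccaccaaacgaCGAgtcctgaaccat
Trim40 E60*, chr17:36888993-36889019, minus strand, ref: aagccatgttccGAGggggtccttgga
Trim40 E60*, alt: aagccatgttccTAGggggtccttgga
Bace2 S204*, chr16, plus strand, base 97412062, joined over an exon junction, ref: ttggccaagccaTCAagctctctggag
Bace2 S204*, alt: ttggccaagccaTAAagctctctggag
Sfi1 W115*, chr11:3179417-3179443, minus strand, ref: tcccagagggagTGGaagctctgtgtc
Sfi1 W115*, alt: tcccagagggagTAGaagctctgtgtc
Sfi1 W803*, chr11, minus strand, base 3136635, joined over an exon junction, ref: tgcttctgccagTGGaggaagcagctg
Sfi1 W803*, alt: tgcttctgccagTAGaggaagcagctg

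*Scnm1*, which encodes a splicing factor known as a modifier of sodium channel disease, was the only fixed stop-loss of a coding transcript. The reference strain C57BL/6J is known for a stop codon in this gene. The alternate base was in 32 of 32 reads in O48, 35 of 35 in ΔDSM-O48-1 and 41 of 41 in ΔDSMD-O48-2, with lower 95% limits (exact Clopper-Pearson) of 89.1%, 90.0% and 91.4%. So no read of any line carried the stop codon of the reference genome, although the lines are labelled C57BL/6. The codon became arginine, and the frame ran on for 42 residues after it, giving a predicted protein of 229 residues in place of 186. The stop lies in exon 6 of 7, and 1 of 3 coding RefSeq transcripts at the position has it.

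The fixed stop-gains lay at different depths of the protein. *Trim40*, a tripartite motif gene of the E3 ubiquitin ligase family, had E60* in 35 of 35, 36 of 36 and 40 of 40 reads (O48, ΔDSM-O48-1 and ΔDSMD-O48-2, the order used throughout). This is 24.4% of the way along 246 residues, and all 11 coding transcripts were hit. *Bace2*, a membrane aspartyl protease, had S204* in 27 of 27, 43 of 43 and 33 of 33 reads, at 39.7% of 514 residues and in exon 4 of 9. It was present in 1 of 2 RefSeq coding transcripts, the curated one, and in 2 of 2 GENCODE coding transcripts.

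*Sfi1*, which encodes a centrin-binding protein of the centrosome, had both a stop at codon 115 and a stop at codon 803 of 1216. W115* was in 1064 of 1101, 1110 of 1149 and 1039 of 1071 reads, which is 96.6%, 96.6% and 97.0%. W803* was in 813 of 866, 893 of 953 and 875 of 918 reads, which is 93.9%, 93.7% and 95.3%. The earlier stop is in 9 of 22 coding transcripts at its position and the later one in 25 of 25. These positions had many times the reads of the stop positions in *Scnm1*, *Trim40* and *Bace2*, which had 27 to 43 reads. In all 3 lines, reads with the reference base were present at both positions.

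Of the 5 fixed coding stop-gains, 4 lay more than 50 bases before the last exon junction, from 497 bases in *Trim40* to 3203 bases for *Sfi1* W115*, and 1 was in the last exon. The median position of the 5 was 39.6% of the protein when the transcript nearest the N-terminus was taken, and 39.7% in the transcript nearest the C-terminus. The 15 mixed coding stop-gains had a median position of 39.3% in the transcript described here. Of these, 9 lay more than 50 bases before the last junction and 4 were in the last exon. With 5 fixed stop-gains these medians are a description.

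**Figure D2:**
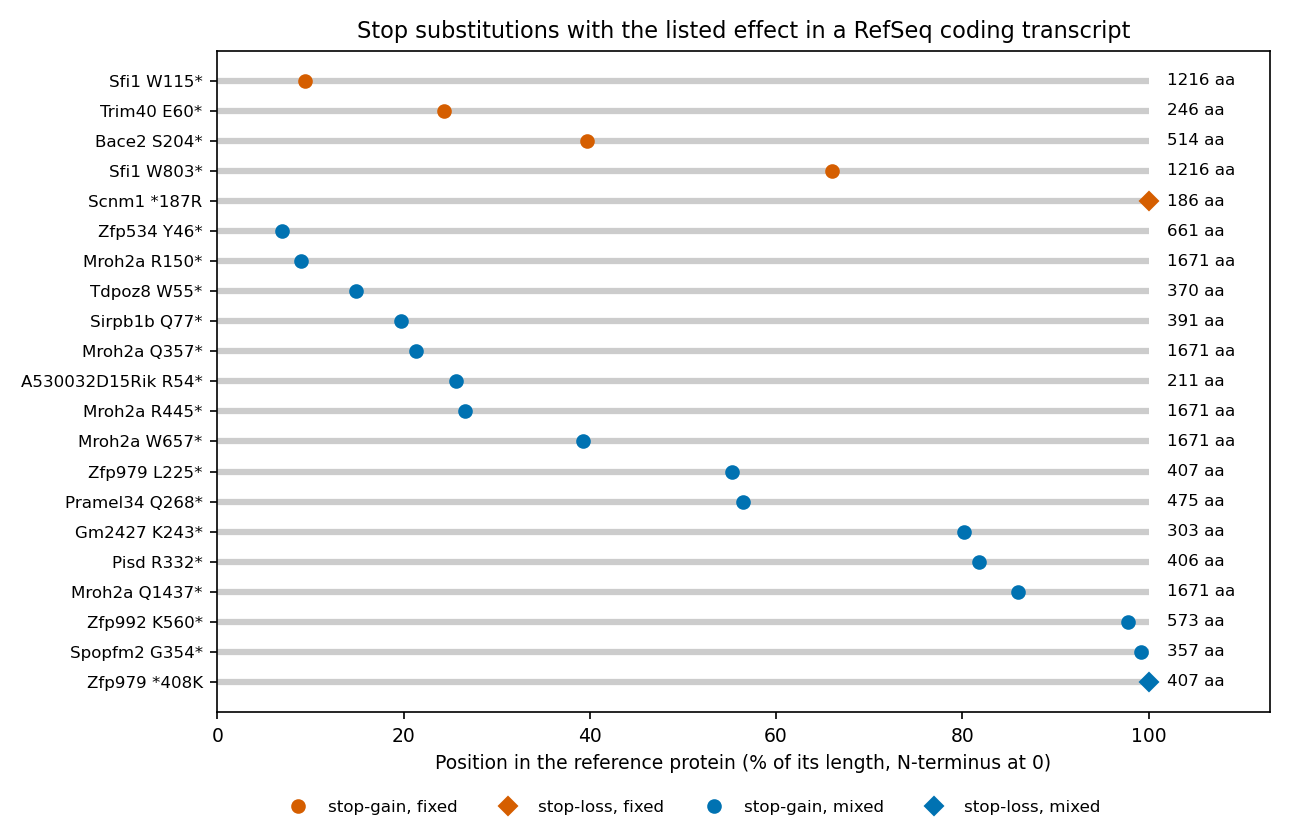
Position of stop-gains (circles, 4 of the 5 fixed and all mixed) and stop-losses (diamonds) with the listed effect in a RefSeq coding transcript, in percent of the reference protein, with its length in amino acids (aa) at the right; fixed members are orange and mixed members blue. The fixed stop-gains shown ran from 9.46% to 66%, both in Sfi1, and mixed ones from 6.96% in Zfp534 to 99.2% in Spopfm2.

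Of the 5 fixed coding substitutions at splice sites, 3 changed a GT donor and 2 turned an unusual dinucleotide of the reference into the usual one. The intron ends are printed 5′ to 3′ on the strand of the gene, with the dinucleotide in capitals, to show both kinds.
Cfap43 donor, chr19:47813916-47813933, minus strand, ref: ggaattGTaatgtattct
Cfap43 donor, alt: ggaattCTaatgtattct
Ugt1a donor, chr1:88215877-88215894, plus strand, ref: tgcttgGTaggttggggg
Ugt1a donor, alt: tgcttgGAaggttggggg
Cd84 donor, chr1:171839793-171839810, plus strand, ref: gctctgGGaaggggtcct
Cd84 donor, alt: gctctgGTaaggggtcct
2010315B03Rik acceptor, chr9:124295153-124295170, minus strand, ref: actgcattttAAgctaca
2010315B03Rik acceptor, alt: actgcattttAGgctaca

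*Cfap43* (listed as Wdr96), a gene of cilia and flagella, had the donor of intron 7 changed in 15 of 15, 17 of 17 and 14 of 14 reads, and all 4 coding transcripts use it. *Spire1*, an actin nucleator, had the donor of intron 1 changed from GT to GC in 35 of 35, 45 of 45 and 26 of 26 reads. GC is a known minor class of donor, and this donor belongs to 1 of 13 coding transcripts at the position. *Cd84*, a receptor of the SLAM family on immune cells, had GT in place of the reference GG in 23 of 23, 22 of 22 and 24 of 24 reads, in 3 of 3 coding transcripts. *2010315B03Rik* had AG in place of the reference AA at the acceptor of intron 3 in 32 of 32, 38 of 38 and 31 of 31 reads, in 4 of 4 coding transcripts. With *Scnm1*, this makes 3 of the 11 fixed coding members in which the reads of all lines held an arginine codon, a GT or an AG where the reference has a stop or a dinucleotide outside the usual GT and AG.

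The *Ugt1a* cluster, which encodes UDP-glucuronosyltransferases with separate first exons joined to shared later exons, differed from the other splice sites. The GT donor after shared exon 3 read GA in 174 of 188, 139 of 166 and 136 of 156 reads. These shares of 92.6%, 83.7% and 87.2% include the lowest of any fixed member, and the genotype was called heterozygous in all 3 lines. The donor is used by 9 of 9 coding transcripts at the position, which belong to 9 genes. The acceptor of the next intron, also shared, was a mixed member, with AC in place of AG in 25 of 177, 25 of 195 and 20 of 197 reads (14.1%, 12.8% and 10.2%).

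The 22 mixed members with a coding effect had alternate shares between 7.14% and 65.5%. The sequences of 4 of these genes are printed because a run of C precedes the site, the codon after the lost stop is a stop as well, or the new stop lies at an exon junction.
Plcg2 acceptor, chr8:117504123-117504140, plus strand, ref: ccccccccccAGcctcca
Plcg2 acceptor, first alt: ccccccccccCGcctcca
Plcg2 acceptor, second alt: ccccccccccACcctcca
Dock8 acceptor, chr19:25171489-25171506, plus strand, ref: cccaccccccAGgcaagc
Dock8 acceptor, alt: cccaccccccCGgcaagc
Zfp979 *408K, chr4:147613015-147613041, minus strand, ref: aagtgctttgctTAAtaatgcagtctg
Zfp979 *408K, alt: aagtgctttgctAAAtaatgcagtctg
Pisd R332*, chr5, minus strand, base 32737988, joined over an exon junction, ref: atccactttgacCGAgacctgcacaca
Pisd R332*, alt: atccactttgacTGAgacctgcacaca

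*Mroh2a* (listed as Heatr7b1), a gene of HEAT repeats, held 5 mixed stop-gains, the most of any coding gene. R150* was in 25.9%, 28.9% and 28.9% of 139, 159 and 152 reads. The other 4, listed as Q360*, R448*, W660* and Q1445*, had shares from 13.5% for R448* in O48 to 54.5% for W660* in ΔDSMD-O48-2. In the curated transcript of 1671 residues they are codons 357, 445, 657 and 1437, and each lies over 50 bases before the last junction. *Pisd*, the mitochondrial phosphatidylserine decarboxylase, had R332* in 55 of 84, 57 of 91 and 53 of 81 reads, which is 65.5%, 62.6% and 65.4%. That stop lies 3 bases before the last junction and was in 11 of 11 coding transcripts.

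Zinc finger genes of chromosome 4 held 4 of the mixed coding members. *Zfp992* K560* removes 14 of 573 residues and had shares of 47.3%, 38.9% and 49.0%. *Zfp979* lost its stop at codon 408 in 49.3%, 44.0% and 54.5% of reads, and the codon after it is again a stop, so that the predicted protein gains 1 residue. *Zfp979* L225* (54.8%, 46.3% and 43.5%) and *Zfp534* Y46* (7.14%, 27.8% and 15%) each shared the codon with another call at nearly the same share. For L225* the other call, L225V, was at 54.8%, 46.3% and 43.5%. If both bases of the codon are on the same reads, the codon becomes L225G in *Zfp979*, Y46L in *Zfp534* and, in the same way, Q77Y in *Sirpb1b*, and none of them is a stop. The table gives no reads, so the phase was not tested.

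Further mixed coding members lay outside these genes. *A530032D15Rik* held R54* (35.5%, 31.1% and 39.0%) and an acceptor changed from AG to AA (51.9%, 58.6% and 52.8%). *Sp110*, which encodes a nuclear body protein, had its acceptor of intron 1 changed to AA in 17.5%, 21.2% and 19.4% of 378, 358 and 346 reads. *Tdpoz8* W55* and *Spopfm2* G354*, genes of the TD and POZ domain family, had 27.4% to 35.1% and 50% to 57.7%. *Pramel34* Q268*, in a Prame-like gene, had 37.8% to 48.4%, and *Gm2427* K245* had 29.3% to 45.5%. The *Gm2427* stop was found in 1 of 2 RefSeq coding transcripts, as K243*, and no curated transcript of the gene is there. GENCODE has a pseudogene at the position, so this is the coding member without the effect in GENCODE.

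*Plcg2*, phospholipase C gamma 2, and *Dock8*, a guanine nucleotide exchange factor of immune cells, had their members at acceptors that follow a run of C, as printed above. Both bases of the *Plcg2* acceptor of intron 1 were called as C. The A was replaced in 7 of 27, 8 of 18 and 6 of 21 reads, and the G in 6 of 26, 8 of 18 and 5 of 20. In *Dock8*, 3 of 22, 1 of 13 and 4 of 19 reads had C in place of A. With 1 to 8 alternate reads these shares have wide limits, such as 0.195% to 36.0% for the 1 read of *Dock8* in ΔDSM-O48-1.

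The remaining 104 of the 137 had no listed effect in a RefSeq coding transcript. Of these, 36 lay in an exon or splice site of a transcript without a coding part, 31 in a pseudogene, 15 in a coding exon with a nonsynonymous or synonymous effect, 7 in introns, 3 in an untranslated region and 12 in no transcript of the annotation used. A position of several kinds was counted once. Coding exons came first, then pseudogenes, transcripts without a coding part, untranslated regions and introns. For 76 of the 137 substitutions, the table names the gene by an id number, and 0 of these 76 had the effect in a coding transcript. Such names were given to 55.5% of the 137, to 32.8% of nonsynonymous and to 18.5% of synonymous substitutions. The gene symbols given below for them are those of RefSeq at the position.

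For many of these, the listed codon was one of a non-coding transcript counted from its first base. Of the 98 stop-gains and stop-losses in all 3 lines without a coding effect, 42 had the listed codon and codon number when codons were counted from the first base of a RefSeq transcript. In 37 of the 42 that transcript has no coding part. The 27 transcripts of all 42, coding or not, hold 3 to 76 stop codons in that frame, with a median of 18. They include a coding transcript of *Vmn2r129*, with 45. Among the 22 stop members with a coding effect, 17 had the listed codon and number in the coding part of a RefSeq transcript.

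Entries beyond a lost stop were common in the table. A total of 37 listed transcripts had a stop-loss in all 3 lines, 27 of them had coding entries at later codons than the lost stop, and 11 had 2 or more lost stops. The long non-coding RNA *Gm19911* (id184391) had lost stops at codons 593, 630 and 1497 (*593W, *630Y and *1497Y) and gained stops at K584* and R1700*, each with the alternate base in all of 29 to 49 reads. *Gm9926* (id274691) had *121Y, *127R and W253* in all reads of all lines. The antisense RNA *Lyzl4os* had W175* and *181W in all reads, 18 bases apart.

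Other fixed members in non-coding transcripts lay in *Gm12130*, *F630206G17Rik*, *Gm11186*, a non-coding transcript of *Il4*, *4933405E24Rik*, *1700044C05Rik*, *Gm13710*, *D930015M05Rik*, *4921511C10Rik*, *Rbm46os*, *BB031773*, *Gm12830*, *Foxd2os* and *E530011L22Rik*. All but 1 of these had the alternate base in every read, the exception being *4921511C10Rik* *283R at 97.0% in ΔDSM-O48-1. Fixed members in pseudogenes lay in *Pisd-ps1*, *Pisd-ps2*, *Gm12142*, *Gm12163*, *AA684185*, *Gm40020*, *Gm8643* and *Gm12787*. *Pisd-ps1* (id178949), beside *Sfi1* on chromosome 11, had *714S, W789* and S939* at 95.6% to 97.7% of 782 to 978 reads. The position of S939* is also in an exon or splice site of *Sfi1*, outside its coding part.

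In RefSeq, fixed members in introns were in *Tnip1*, *Slc36a2* and *Gpc6*, and 1 was in an untranslated region of *Rfx5*. GENCODE has the pseudogene *Gm12230* at the *Tnip1* position. At the *Slc36a2* and *Rfx5* positions it has an exon or splice site of a transcript without a coding part. The stop-losses listed for *Muc4*, a mucin, and *Flg2*, a filaggrin, fell on other codons in the curated transcripts. *Muc4* *1865S was E1864Q there, *Flg2* *1326Q was synonymous at codon 1325, and *Flg2* *1378S was E1378Q. Ribosomal RNA genes held 3 fixed stop-losses, although ribosomal RNA is not translated. *Rn45s* had *754C and *931S at 99.2% to 99.6% of 2345 to 3005 reads, and *Rn18s* had *272R at 87.2%, 90.0% and 89.4% of 257, 261 and 274 reads.

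The 47 mixed members without a coding effect were listed for 32 genes, of which 4 held 3 or more (14 members together) and 23 held 1. *Vmn2r129* (id76346), a vomeronasal receptor by its position, held 5, of which S284* had 55.4%, 53.0% and 61.3%. In all, 8 of the 137 lay at or in vomeronasal genes that the table names otherwise. *4933438K21Rik* (id73926), *Rhno1* (id109403) and id132997, which lies in no RefSeq transcript, held 3 each, at shares of 21.1% to 60.0%, 16.2% to 52.2% and 28.6% to 60.6%. Ranked by the lowest share over the lines, the first mixed members were *Vmn2r29* R54* (73.6%, 76.1% and 75.5%) and, in an intron of *Zfp978*, *345Q (73.2%, 73.3% and 69.3%), followed by *Gm20760* Q242* (64.0%, 63.9% and 68.5%) and *Pisd* R332*. *1700095A21Rik* *131Y, *Gm20760* *233S and *Pisd-ps1* *75S had their lowest share at 62.5%, 55.9% and 55.6%. The remaining members of the 10 with the highest lowest share were *Vmn2r129* S284*, the *A530032D15Rik* acceptor and id132997 Q744*.

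Most fixed members had no reference read in any line. Of the 63 fixed members, 51 had the alternate base in all reads of all 3 lines, with 10 to 52 reads per line and a median of 31. A further 10 had 156 to 3005 reads in each line and shares of 83.7% to 99.6%, and the last 2 had a lowest share of 97.0%. In 60 of the 63 the genotype was homozygous in all lines. The 69 mixed members had shares of 7.14% to 76.1% with a median of 39.1%, and 0 of them was called homozygous in any line. Their median depth was 71 reads against 32 for fixed members. For mixed synonymous and nonsynonymous substitutions it was 62 and 75. The share nearest to 80% was 83.7% among fixed members (*Ugt1a* donor, ΔDSM-O48-1) and 76.1% among mixed members (*Vmn2r29* R54*, ΔDSM-O48-1).

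**Figure D3:**
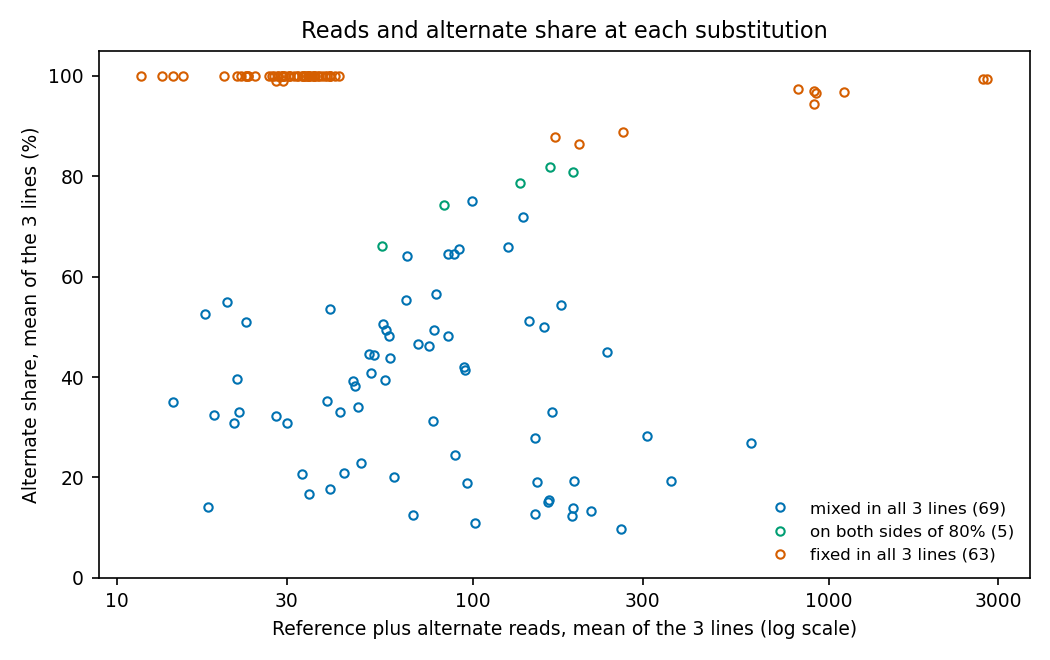
Mean number of reference plus alternate reads over the 3 lines (log scale) against the mean alternate share, 1 point per substitution, by class. In single lines, most fixed members had a share of 100% at no more than 52 reads. The 10 deep ones had 156 to 3005 reads and shares of 83.7% to 99.6% in single lines. Mixed members had single-line shares of up to 76.1%.

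The share of fixed members was 46.0% of the 137 (95% limits 37.4% and 54.7%). It was 43.8% among nonsynonymous (41.8% and 45.8%) and 63.7% among synonymous substitutions (61.4% and 66%). Among stop-gains it was 36.6% and among stop-losses 59.2%. Transitions made up 54.0% of the 137, against 57.5% of nonsynonymous and 78.6% of synonymous substitutions. Of the 26 fixed stop-gains, 10 were a C-to-T change of CAA, CAG or CGA on the coding strand, and 6 of these were at CGA. Of the 42 mixed ones, 21 were such changes and 7 were at CGA. Positions share linkage and sequence, so these shares are given without a test.

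Many members lay close to each other in the genome. The 63 fixed members lay in 47 listed genes on 13 chromosomes, with 21 of them on chromosome 11. There, 16 members of 12 genes lay between 38492864 and 55168138, from *Gm12130* to *Slc36a2*, and 5 more lay between 3131229 and 3179430, in *Pisd-ps1* and *Sfi1*. On chromosome 3, 8 fixed members lay between 74815288 and 95130195, the last being *Scnm1*. The 69 mixed members lay in 47 genes on 11 chromosomes, 24 on chromosome 4 and 14 on chromosome 1. Of these, 17 members of 11 genes lay between 145830050 and 147678236 on chromosome 4, and the 14 on chromosome 1 lay between 85091190 and 88266616, from *A530032D15Rik* to *Hjurp*. Another call lay within 100 bp of 62 of the 69 mixed and 36 of the 63 fixed members, at a median distance of 11 bp and 65 bp to the nearest call. Close calls were common in the whole table as well. Of 228 members with at least 10 reads in ΔDSM-O48-1 and O48, carried by all 3 lines or not, 69 had no such neighbour. Over all 10874 such positions of the table it was 2674. Counts by chromosome and interval were not made for all positions, so they are not given as a trait of these members. The part of neighbouring calls in the shares was not tested.

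The effects were listed mostly for single transcripts. In the table, 117 of the 137 had 1 transcript, and in 128 every listed transcript had the effect. In RefSeq, 23 of the 33 coding members had the effect in all coding transcripts at the position. The rest, such as *Spire1*, *Bace2*, *Scnm1* and *Sfi1* W115*, had coding transcripts that avoid it. For *Bace2* the avoiding transcript is not a curated one.

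At the 137, the highest minus the lowest share over the lines had a median of 0.0 percentage points for fixed and 10 for mixed members, and 34 of the 69 mixed members were within 10 points. The widest mixed range was that of *BC021767* S433* (id51621), at 64.3%, 26.7% and 14.3% of 14, 15 and 14 reads, and none of its pairs passed the test. Reads of each pair of lines were compared by Fisher's exact test (two-sided), with p adjusted by Benjamini-Hochberg over every position of the table with at least 10 reads in both lines. Of the 137, 0 differed between ΔDSM-O48-1 and O48 where 4.06% of all 10874 positions did. Between ΔDSMD-O48-2 and ΔDSM-O48-1 it was 1 of 137, against 4.37% of 10846 positions, and between ΔDSMD-O48-2 and O48 it was 1 of 137, against 5.14% of 10816. At an unadjusted p below 0.05 the counts were 7, 4 and 6 of 137, beside 14.0%, 14.3% and 14.5% of all positions. Being called in every line was part of how the 137 were chosen, so these low counts are a description.

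**Figure D4:**
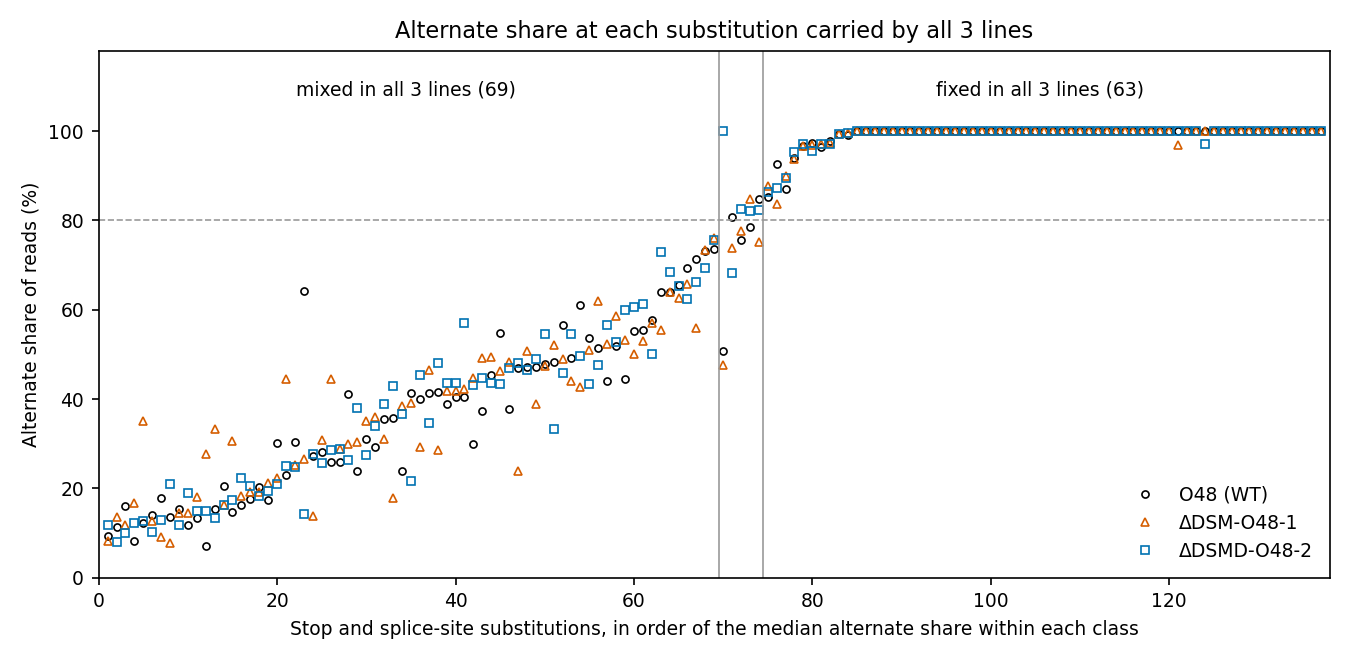
Alternate share of reads (percent) for O48 (circles), ΔDSM-O48-1 (triangles) and ΔDSMD-O48-2 (squares) at the 137 substitutions, ordered by class and median share; the dashed line is 80% and the 5 members between the vertical lines lie on both sides of it. The 69 mixed members range from 7.14% to 76.1% and the 63 fixed members from 83.7% to 100%.

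The 1 member of the 137 that differed was K939* in id168241, at a position in an untranslated region of *Duxf3*. Its alternate base was in 31 of 61 reads in O48, 29 of 61 in ΔDSM-O48-1 and 45 of 45 in ΔDSMD-O48-2. The adjusted p of Fisher's exact test was 6.43e-08 against ΔDSM-O48-1 and 1.33e-07 against O48. The other 4 members on both sides of 80%, in *Hjurp* (*1010S), *Pisd-ps1* (E190*), *4933438K21Rik* (*326Q) and *Vmn2r29* (Q6*), had shares between 68.4% and 84.9% and passed in no pair.

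Among all 240 members, 18 of 228 tested differed between ΔDSM-O48-1 and O48 (7.89%), 17 of 220 between ΔDSMD-O48-2 and ΔDSM-O48-1 (7.73%), and 14 of 225 between ΔDSMD-O48-2 and O48 (6.22%), beside the 4.06%, 4.37% and 5.14% of all positions. At an adjusted p below 0.01 they were 11, 9 and 8, beside 2.07%, 2.25% and 2.98%. Without positions that have another call within 100 bp, they were 5 of 69, 2 of 66 and 5 of 67 (7.25%, 3.03% and 7.46%), beside 2.54%, 2.20% and 3.44% of the positions left. At the 0.05 threshold these were 28 members in all, and 25 of them had 0 alternate reads in 1 or 2 lines. A change of fixed class was seen at a *Ttll4* donor, *Gm7168* R403* and *4930517E11Rik* C5*. There O48 had 0 of 24, 0 of 30 and 0 of 21 alternate reads, which allow shares of up to 12.5%, 10% and 14.3%. Both knockout lines had the alternate base in all of 23 to 38 reads. The donor belongs to 2 of 3 RefSeq coding transcripts of *Ttll4* there, and R403* was in 2 of 2 of *Gm7168*. The C5* position lies in a transcript without a coding part. In *Thap1*, a zinc finger transcription factor, Y8* was in 35 of 46 reads in O48 and 1 of 25 in ΔDSM-O48-1 (adjusted p = 2.46e-07, Fisher's exact test), with no value in ΔDSMD-O48-2. The call Y8H in the same codon had the same shares, 76.1% and 4.0%, and with both bases the codon is Y8Q, which is no stop. Of the 103 members not in all 3 lines, 46 had the listed effect in a coding transcript.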

How the data were processed

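Genomic DNA of 3 haploid ESC lines, 1 library each, had been sequenced. The authors deposited a table of exonic variants in which the values used are whole-number counts of reads with the reference base and with the alternate base, without normalization. Positions with several alternate alleles, whose counts are given as pairs, were not used. Genotype and site quality scores and an allele fraction over the 3 genotypes, all made by the authors' caller, were deposited too and gave no result here. The submitters' processing notes name CASAVA 1.8.2, BWA 0.7.12, SAMtools, Picard, GATK and mm10, without giving the caller's filters. A wrong alignment of repeated sequence would change these counts.

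Members and gene lists were chosen with earlier results of these data known. Alternate share was alternate reads divided by reference plus alternate reads. Exact 95% Clopper-Pearson limits and the limit from 0 reads (3 counts) cover counting error only. Each substitution was placed in every RefSeq transcript (GRCm38.p6) and GENCODE M21 transcript, and the codon was translated with and without it. Splice sites were the 2 intron bases next to an exon. The rule for naming took genes with a member fixed in all lines, genes changing class and mixed genes with at least 3 members. It also took the 10 highest mixed members and members differing between lines. Of the members differing between lines, only those changing class and *Thap1* are named here. Fixed members in no RefSeq transcript are named only for ribosomal RNA. Mixed members with a coding effect, and other gene symbols, were named after their values were seen. Details of 1 fixed stop-gain, which the counts and medians include, are not reported here. Reads of 2 lines were compared by Fisher's exact test with Benjamini-Hochberg adjustment. With 1 library per line no spread between cultures was measured. The test and the translation were tested on simulated data. Python 3.11.15, pandas 2.3.3, scipy 1.17.1, statsmodels 0.14.6, pysam 0.24.0, biopython 1.88 and matplotlib 3.10.9 were used. The alternatives tried were other depth minimums, shares and p thresholds, keeping receptor genes, and leaving out neighbouring calls or unnamed genes. The 4 knocked-out genes hold 0 members, and insertions and deletions, which would check the knockouts, were not analysed here.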

Additional observations from a re-analysis of the deposited data

How the results depend on the processing

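Leaving out positions with another call within 100 bp lowered the number carried by all 3 lines from 137 to 34, the fixed members from 63 to 27 and the mixed members from 69 to 7. Leaving out genes named by id, LOC, Gm or Rik gave 32, 16 and 16. Without a depth minimum, with 20 reads, with a share of 0.2 as carried, with 0.7 or 0.9 as fixed, or with receptor genes kept, these counts stayed within 1.5 times. The median position of fixed coding stop-gains, 39.6%, became 26.0% with at least 20 reads in each line and 26.1% without neighbouring calls, as fewer stop-gains remained. At an adjusted p below 0.01, the members differing were 11 (ΔDSM-O48-1 against O48), 9 (ΔDSMD-O48-2 against ΔDSM-O48-1) and 8 (ΔDSMD-O48-2 against O48), and without neighbouring calls 5, 2 and 5. The 33 members with a coding effect were 32 in curated transcripts and 30 with the other calls of a codon included. No paired analysis was possible because each line has 1 library. At 14 reads, a share of 50% has limits of 23.0% and 77.0%.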
